A study of Homo sapiens with 15 samples.

Results

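The cytosolic ribosomal proteins are the protein part of the machine that makes every other protein. Here their messenger RNAs were measured in A375 cells, an established human melanoma line. Members were the genes whose symbol is RPL or RPS followed by digits, with an optional final A or L, plus RPLP0, RPLP1, RPLP2 and RPSA. RPS27L and symbols with a P or hyphen suffix were left out. This gave 79 distinct symbols, which filled 79 of the 20332 rows of the starvation table and 81 of the 20323 rows of each overexpression table, where RPL22 and RPL26 each had a second gene ID. The 15 libraries fell into 5 groups of 3. One experiment compared A375 cells starved in 0.1% FBS for 48 hours with A375 cells kept in 10% FBS. The other compared A375 cells that overexpressed caMKL1, a constitutively active form of MKL1, or MKL1 itself, with A375 cells that carried a control vector, each for 48 hours. All groups are 1 cell line. No label tells if replicates came from separate cultures, so p-values measure only the spread between these libraries, which may be technical. MKL1, whose current symbol is MRTFA, is a coactivator of the serum response factor SRF that monomeric actin holds in the cytoplasm until serum signals release it.

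A ribosome holds 1 copy of nearly every one of these proteins, so cells make them in step with each other. Their genes are among the most strongly transcribed in growing cells, and most of their messages start with a C followed by a run of pyrimidines, the 5′ TOP element, through which mTOR and LARP1 adjust their translation to growth signals such as serum. The transcription factor MYC is known to raise ribosomal protein genes, and tumour cells, melanoma included, depend on a high output of ribosomes. RNA-seq measures the level of the messages, not how well they are translated.

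The start of the message is the element that the members share and the symbol rule did not use. RefSeq tables of the GRCh38.p14 build gave 77 start windows for 62 of the 79 symbols, each 250 bases before and 50 bases from the start on. A C within 4 bases of the annotated start, followed by C or T to a run of at least 5 bases, was found in 54 of the 77 windows, which is 70.1%, against 15.3% of all 35116 windows. By gene, 52 of the 62 members with a window (83.9%) held such a run at 1 start or more, against 18.6% of the 27305 genes with a window. The stretches shown are 15 bases before and 15 from the start on, with that run in capitals, for the members with the largest falls with caMKL1 (RPS9 to RPLP2), for members that did not pass the test there (RPL22 to RPS27), and for RPSA, a large fall under starvation, and RPL13A and RPS6, the members that rose there.
RPS9, chr19:54200843-54200872, plus strand: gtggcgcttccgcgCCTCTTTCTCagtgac
RPL18, chr19:48619164-48619193, minus strand: accccagcccgttCTCTCTTTCCggacctg
RPS26, chr12:56041903-56041932, plus strand: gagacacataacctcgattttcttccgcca
RPL35, chr9:124861943-124861972, minus strand: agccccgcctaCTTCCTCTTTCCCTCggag
RPS15, chr19:1438381-1438410, plus strand: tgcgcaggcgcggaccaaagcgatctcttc
RPLP2, chr11:809952-809981, plus strand: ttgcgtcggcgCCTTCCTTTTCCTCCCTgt
RPL22, chr1:6199581-6199610, minus strand: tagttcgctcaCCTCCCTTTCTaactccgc
RPS27A, chr2:55232673-55232702, plus strand: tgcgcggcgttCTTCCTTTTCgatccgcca
RPL36A, chrX:101390996-101391025, plus strand: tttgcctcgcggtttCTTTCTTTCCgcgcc
RPS27, chr1:153990747-153990776, plus strand: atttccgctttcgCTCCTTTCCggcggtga
RPSA, chr3:39406705-39406734, plus strand: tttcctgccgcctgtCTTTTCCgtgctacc
RPL13A, chr19:49487593-49487622, plus strand: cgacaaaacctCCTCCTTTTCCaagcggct
RPS6, chr9:19380222-19380251, minus strand: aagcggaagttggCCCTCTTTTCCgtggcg
Of these 13, RPS26 and RPS15 held no such run at the annotated start, and RPS27A held one at 1 of its 3 starts.

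Of the other motifs searched on both strands of the 300 bases, the ETS motif CCGGAAG was in 32.5% of the members' windows, against 10.3% of all windows. The YY1 motif AAGATGG was in 10.4%, against 5.84%, the SP1 motif GGGCGG in 54.5%, against 45.0%, the E box CACGTG that MYC binds in 5.19%, against 7.26%, and TATAAA in 7.79%, against 11.5%. The CArG box, the site that SRF binds, was in 3 of the 77 windows (3.9%), against 1.29% of all windows, and these windows belong to RPL24, RPS28 and an upstream start of RPS27A. The 100 bases before the start of RPL24 and RPS28 are shown with the CArG box in capitals, and those of RPS14 with its 2 ETS matches in capitals.
RPL24, chr3:101686719-101686818, minus strand: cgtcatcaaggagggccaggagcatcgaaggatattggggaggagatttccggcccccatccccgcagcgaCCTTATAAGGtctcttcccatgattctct
RPS28, chr19:8321396-8321495, plus strand: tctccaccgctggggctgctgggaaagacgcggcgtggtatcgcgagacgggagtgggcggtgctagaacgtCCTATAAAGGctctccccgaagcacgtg
RPS14, chr5:150449740-150449839, minus strand: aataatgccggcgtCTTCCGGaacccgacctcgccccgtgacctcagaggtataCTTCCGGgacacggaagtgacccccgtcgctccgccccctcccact
In RPS28 the CArG box also holds the letters TATAAA. These matches are descriptions of the letters in these windows.

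Libraries held 13937251 to 23957043 counts over all genes. Levels of 1 gene across libraries are given as CPM, counts relative to the total of the library after TMM scaling within each fit. MRTFA checked the labels of overexpression against control vector. It had 475, 457 and 459 CPM with caMKL1, against 25.8, 25.4 and 25.4 CPM with control vector, and 746, 782 and 723 CPM with MKL1, against 26.3, 25.9 and 25.9 CPM. Its level does not show which form of MKL1 a library carried, and it does not check the FBS labels. Of the 7 melanoma markers, SOX10 lay at 422 to 1007 CPM and made up most of their sum. MITF lay at 28.0 to 54.7 CPM, S100B at 13.5 to 75.1 CPM and S100A1 at 19.6 to 54.3 CPM. TYR had at most 2 counts and the pigment genes PMEL and MLANA at most 25 in any library. The 3 leukocyte and 2 epithelial markers had at most 20 counts each in any library, while the fibroblast markers COL1A1 and PDGFRB reached 121 and 328. The summed fibroblast markers were at 15.1 to 18.5 CPM in 0.1% FBS and 19.7 to 22.3 CPM in 10% FBS, and at 12.2 to 14.1 CPM with caMKL1, 12.9 to 17.7 CPM with MKL1 and 13.6 to 14.6 CPM with control vector. The summed leukocyte markers were at 0.861 to 1.21 CPM in 0.1% FBS and 0.316 to 0.651 CPM in 10% FBS. The summed melanoma markers were at 517 to 544 CPM in 0.1% FBS and 582 to 687 CPM in 10% FBS, and at 864 to 957 CPM with caMKL1, 1091 to 1191 CPM with MKL1 and 1012 to 1117 CPM with control vector, and their part in the results was not tested. In bulk samples such as these, fewer cells of a type and less RNA per cell cannot be told apart.

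Annotation placed the 79 genes on 21 chromosomes, with 12 on chromosome 19. Within 28 members lie 60 small nucleolar RNA genes on the same strand, 5 of them in RPL4. GENCODE v29 lists 1110 named pseudogene copies of 75 members, from which reads cannot always be told apart. The overexpression tables had rows for only 2 of these copies, of which RPSAP58 reached 182 counts. Across 76 members, number of copies and log2 fold change had a Spearman correlation of 0.50 with MKL1 and 0.30 with caMKL1. It was 0.09 under starvation and -0.02 with caMKL1 against MKL1, and the part of copies in the results was not tested. Exonic bases are shared with a gene on the opposite strand by 29 members and with one on the same strand by 13, as RPS10 shares 929 with the read-through gene RPS10-NUDT3, and values of these genes are uncertain to that extent.

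Per unit of length, the members were among the most abundant messages in every group. Level is given here as FPKM, fragments relative to gene length and library depth, which allows comparison between genes. The starvation and overexpression tables were normalised separately, so groups are compared within a table. At a level of at least 10 FPKM, 76 members were present in each group, and 72 of them ranked among the 500 most abundant genes in every group. Their median was 808 FPKM in 0.1% FBS and 804 FPKM in 10% FBS, and 648 FPKM with caMKL1, 779 FPKM with MKL1 and 811 FPKM with control vector. Of all genes, 50 members stood in the top 100 in 0.1% FBS and in 10% FBS alike, against 41 with caMKL1 and 47 with both MKL1 and control vector.

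RPS2, which lies at the entrance of the messenger RNA channel, was the most abundant member in 4 of the 5 groups. It had 2673, 2416 and 2413 FPKM with caMKL1, 3205, 3203 and 3080 FPKM with MKL1, and 3630, 3340 and 3268 FPKM with control vector. The 3 groups did not overlap for RPS2, and caMKL1 was the lowest. In 0.1% FBS the order changed: RPS6, the substrate of the S6 kinases, led with 2126, 2176 and 2263 FPKM, and RPS2 had rank 4 among members with 2138, 2067 and 1923 FPKM, so these 2 levels overlapped in that group. At the low end, RPL23A, which sits at the exit of the peptide tunnel, had a mean of 20.5 ± 1.02 FPKM with caMKL1, 28.2 ± 2.68 FPKM with MKL1 and 26.1 ± 1.07 FPKM with control vector (SD, n = 3 each). GENCODE lists 91 copies of RPL23A, the most of any member. Between these ends, RPS10 had 37.7 ± 0.254 FPKM with caMKL1 and 45.8 ± 3.09 FPKM with control vector, and the spread of the middle of the family was small: the level at the third quartile was 1.97 times that at the first with caMKL1 and 2.05 times with control vector. The order of members was nearly the same between groups, with a Spearman correlation over 76 members of 0.986 between caMKL1 and control vector and 0.986 between 0.1% and 10% FBS.

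**Figure D1:**
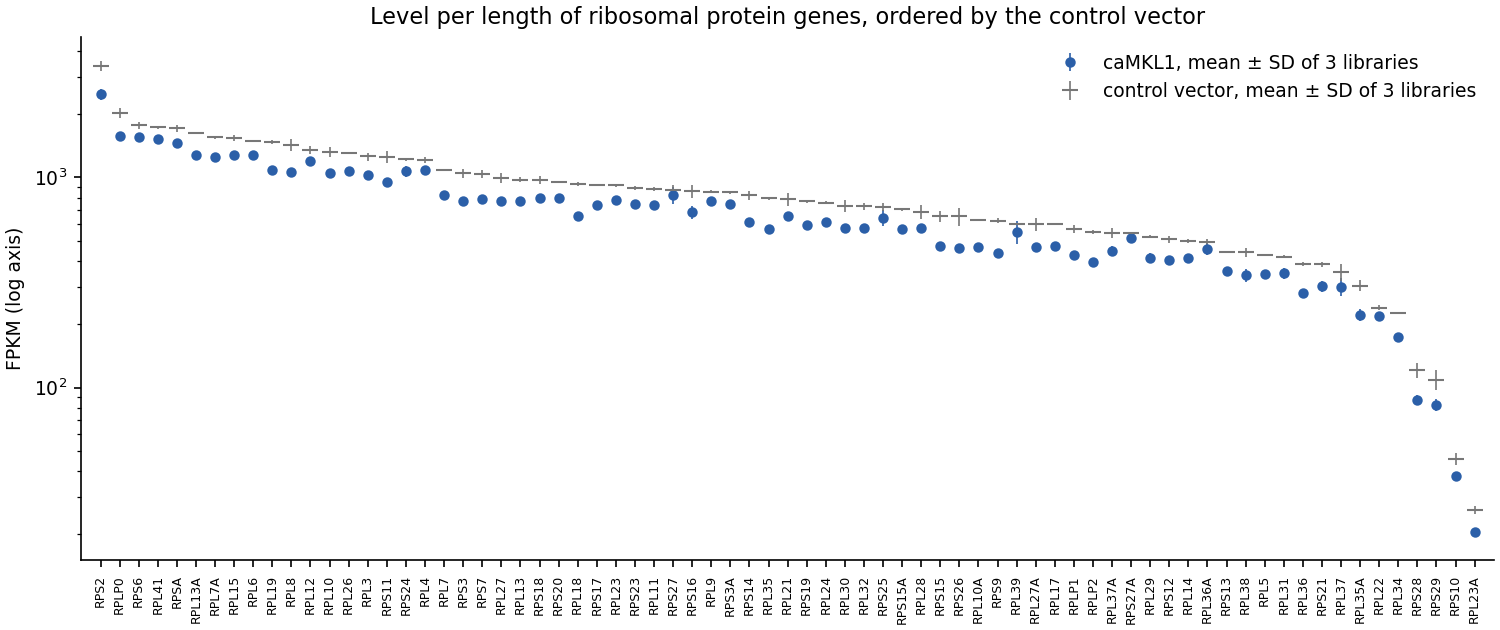
Level of 73 ribosomal protein genes of at least 10 FPKM (log axis), ordered from left to right by their mean with control vector; points are means of 3 caMKL1 libraries, dashes means of 3 control vector libraries, and bars are SD. RPS2 stands highest and RPL23A lowest, and nearly every caMKL1 point lies below its control vector dash.

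The tissue-restricted paralogs stood apart. RPL39L, a copy of RPL39 best known from male germ cells, had 4.14 ± 0.166 FPKM in 0.1% FBS and 6.42 ± 1.2 FPKM in 10% FBS, and 7.01 ± 0.674 FPKM with caMKL1, 8.66 ± 0.348 FPKM with MKL1 and 7.41 ± 0.305 FPKM with control vector (SD, n = 3 each). Its parent RPL39, the smallest protein lining the exit tunnel, stood at 553 ± 68.9 FPKM with caMKL1 and 600 ± 7.03 FPKM with control vector. RPL10L, a testis paralog of RPL10, had 1 to 4 counts in each library, and RPL3L, a muscle paralog of RPL3, had 0 to 5. These 2 genes and the second IDs of RPL22 (at most 1 count) and RPL26 (at most 5 counts) did not pass the filter on low counts, and the other 77 members were tested in every comparison.

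As a share of all gene counts, the family was smallest with caMKL1. The members took up 4.05%, 4.02% and 4.06% of counts with caMKL1, 4.98%, 4.86% and 4.77% with MKL1, and 5.16%, 4.98% and 4.94% with control vector. The 3 caMKL1 libraries lay below all others, while MKL1 and control vector overlapped. Under starvation the share was 4.76%, 4.88% and 4.98% in 0.1% FBS, against 5.01%, 5.26% and 5.19% in 10% FBS, with no overlap. The mean share differed by -19.6% with caMKL1 and by -3.23% with MKL1, each relative to control vector, and by -5.45% in 0.1% relative to 10% FBS. Both subunits were alike with caMKL1, with -20.3% for genes of the small and -19.2% for genes of the large subunit. In starvation the 2 values were -7.81% and -4.05%. As a share of summed FPKM, the difference was -16.7% with caMKL1 but -1.03% with starvation, where 0.1% and 10% FBS libraries overlapped. With 3 against 3 libraries no exact test of a single value can pass the threshold, and none is given for these shares. The share of mitochondrially encoded genes moved the other way, at 3.76 ± 0.255% with caMKL1 and 3.31 ± 0.131% with control vector, and 6.25 ± 0.154% in 0.1% FBS and 5.81 ± 0.282% in 10% FBS (SD, n = 3 each), and its part in the result was not tested.

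**Figure D2:**
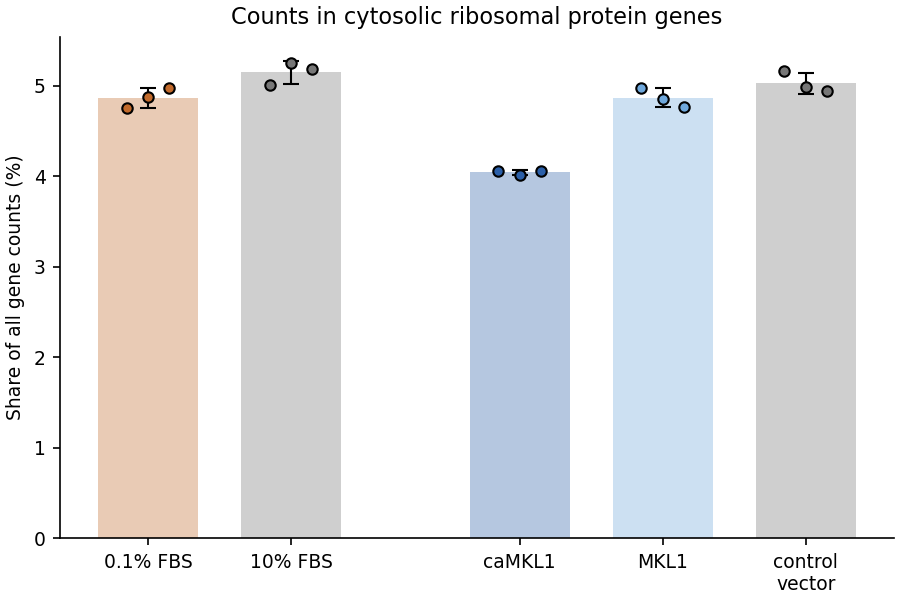
Share of all gene counts, in percent, that fell on cytosolic ribosomal protein genes in each library; bars are group means from 0, error bars are SD, and points are the 3 libraries of a group. The caMKL1 libraries sit between 4.02% and 4.06%, below every other library.

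With caMKL1, ribosomal protein messages fell almost as one. Of the 77 members tested against control vector, 71 fell and 0 rose past an adjusted p of 0.05 (edgeR quasi-likelihood test, Benjamini-Hochberg over 13558 genes), where 63.6% of all genes tested passed, 33.1% lower and 30.5% higher. The count of members that rose is also 0 at an unadjusted p under 0.05, with DESeq2 and with limma on FPKM. All 77 log2 fold changes were below 0 in the edgeR fit of all 6 libraries. When 1 library was left out, RPL22, RPL39 and RPL39L reached at most 0.022, 0.0090 and 0.023. The median log2 fold change of the members was -0.30, or -18.8%, while the median of all genes was -0.02. Changes were small and alike: they spanned -0.51 to -0.01 with an SD of 0.12, where the SD over all genes was 0.88. The caMKL1 and control vector libraries did not overlap, with caMKL1 below, for 70 members, against 35% of all genes, and lay wholly above for 0, against 32.8%. Other abundant genes moved less in the median, at -0.12 for 2286 other genes with a mean of at least 100 CPM, and at -0.16 for the 85 of these with a length under 1000 bases, the length that counts and FPKM imply and that 67 of the members also fall under.

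The largest fall with caMKL1 was that of RPS9, a protein of the messenger RNA channel that helps keep decoding accurate. RPS9 had 288, 283 and 288 CPM with caMKL1, against 420.5, 410 and 396 CPM with control vector. The caMKL1 libraries stood close together and far below every control library, and the log2 fold change was -0.51 ± 0.04 (SE, edgeR adjusted p = 4.0e-08). RPL18 of the large subunit followed with 447, 411 and 419 CPM with caMKL1, against 613, 589 and 579 CPM with control vector. Its log2 fold change was -0.48 ± 0.04 (edgeR adjusted p = 1.9e-07), again without overlap. RPS26, which contacts the message upstream of the start codon and is one of the genes mutated in Diamond-Blackfan anemia, had 300.2, 297 and 292 CPM with caMKL1, against 460.4, 397 and 383 CPM with control vector. Control replicate 1 was high for RPS26, and the log2 fold change was -0.48 ± 0.06 (edgeR adjusted p = 4.6e-06). RPL35 at the tunnel exit and RPS15 near the decoding site fell by 0.47 ± 0.04 and 0.45 ± 0.05 on the log2 scale (edgeR adjusted p = 1.3e-07 and 1.3e-06).

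By role, the 7 proteins of the decoding site and messenger RNA channel all fell with caMKL1, with a median log2 fold change of -0.43 and RPS3A smallest at -0.16. The 4 proteins of the stalk, which recruits translation factors, also all fell: RPLP2 by 0.45 ± 0.04, RPLP1 by 0.41 ± 0.04, RPLP0 by 0.33 ± 0.04 and RPL12 by 0.15 ± 0.04 on the log2 scale (edgeR adjusted p from 3.3e-07 for RPLP2 to 0.0070 for RPL12). RPLP0, the anchor of the stalk and a gene often used to normalise other assays, had 1764, 1706 and 1693 CPM with caMKL1, against 2305, 2099 and 2078 CPM with control vector, without overlap. RPL5 and RPL11, which bind the 5S rRNA and can hold back MDM2, fell by 0.26 ± 0.04 and 0.22 ± 0.04 (edgeR adjusted p = 3.0e-05 and 2.1e-04). RPS6 fell by 0.17 ± 0.04, RPSA by 0.20 ± 0.04, RPL3, which shapes the peptidyl transferase centre, by 0.27 ± 0.04, and RPL10, which is added late in assembly, by 0.31 ± 0.04 (all edgeR adjusted p at most 9.6e-04). Of 16 members listed as mutated in Diamond-Blackfan anemia, a list that may leave out others, 15 fell, RPS27 being the exception. Of all members, 92.2% fell, so these counts by role lie near the share of the family.

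The 6 members that did not pass the test with caMKL1 were RPL22, RPS27A, RPL36A, RPS27, RPL39 and RPL39L. RPL22, which binds RNA outside the ribosome too and which mice can live without, had 242, 249.8 and 256 CPM with caMKL1, against 252, 245 and 255 CPM with control vector, so the groups overlapped (log2 fold change -0.01 ± 0.04, edgeR adjusted p = 0.87). With limma on log2(FPKM + 0.1), RPL22 did fall (-0.14, adjusted p = 0.0091). RPS27A, which is made as a fusion with ubiquitin, had 399.5, 411 and 416 CPM with caMKL1, against 423, 418 and 431 CPM with control vector. The libraries did not overlap for RPS27A, but the gap was small (-0.05 ± 0.04, edgeR adjusted p = 0.22). RPL39 had 186, 235 and 232 CPM with caMKL1, against 235, 233 and 228 CPM with control vector, and RPS27 had 263, 304 and 312 CPM, against 325, 292 and 298 CPM. In both genes caMKL1 replicate 1 was the lowest library and the other caMKL1 libraries lay among the controls. RPL36A had the same pattern, with 213, 236 and 241 CPM with caMKL1, against 237, 233 and 247 CPM with control vector. Of the 3 members with a CArG box in a window, RPL24 and RPS28 fell by 0.28 ± 0.04 and 0.44 ± 0.06, both within the range of the other members, and RPS27A, with the box at an upstream start, did not pass as given above.

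**Figure D3:**
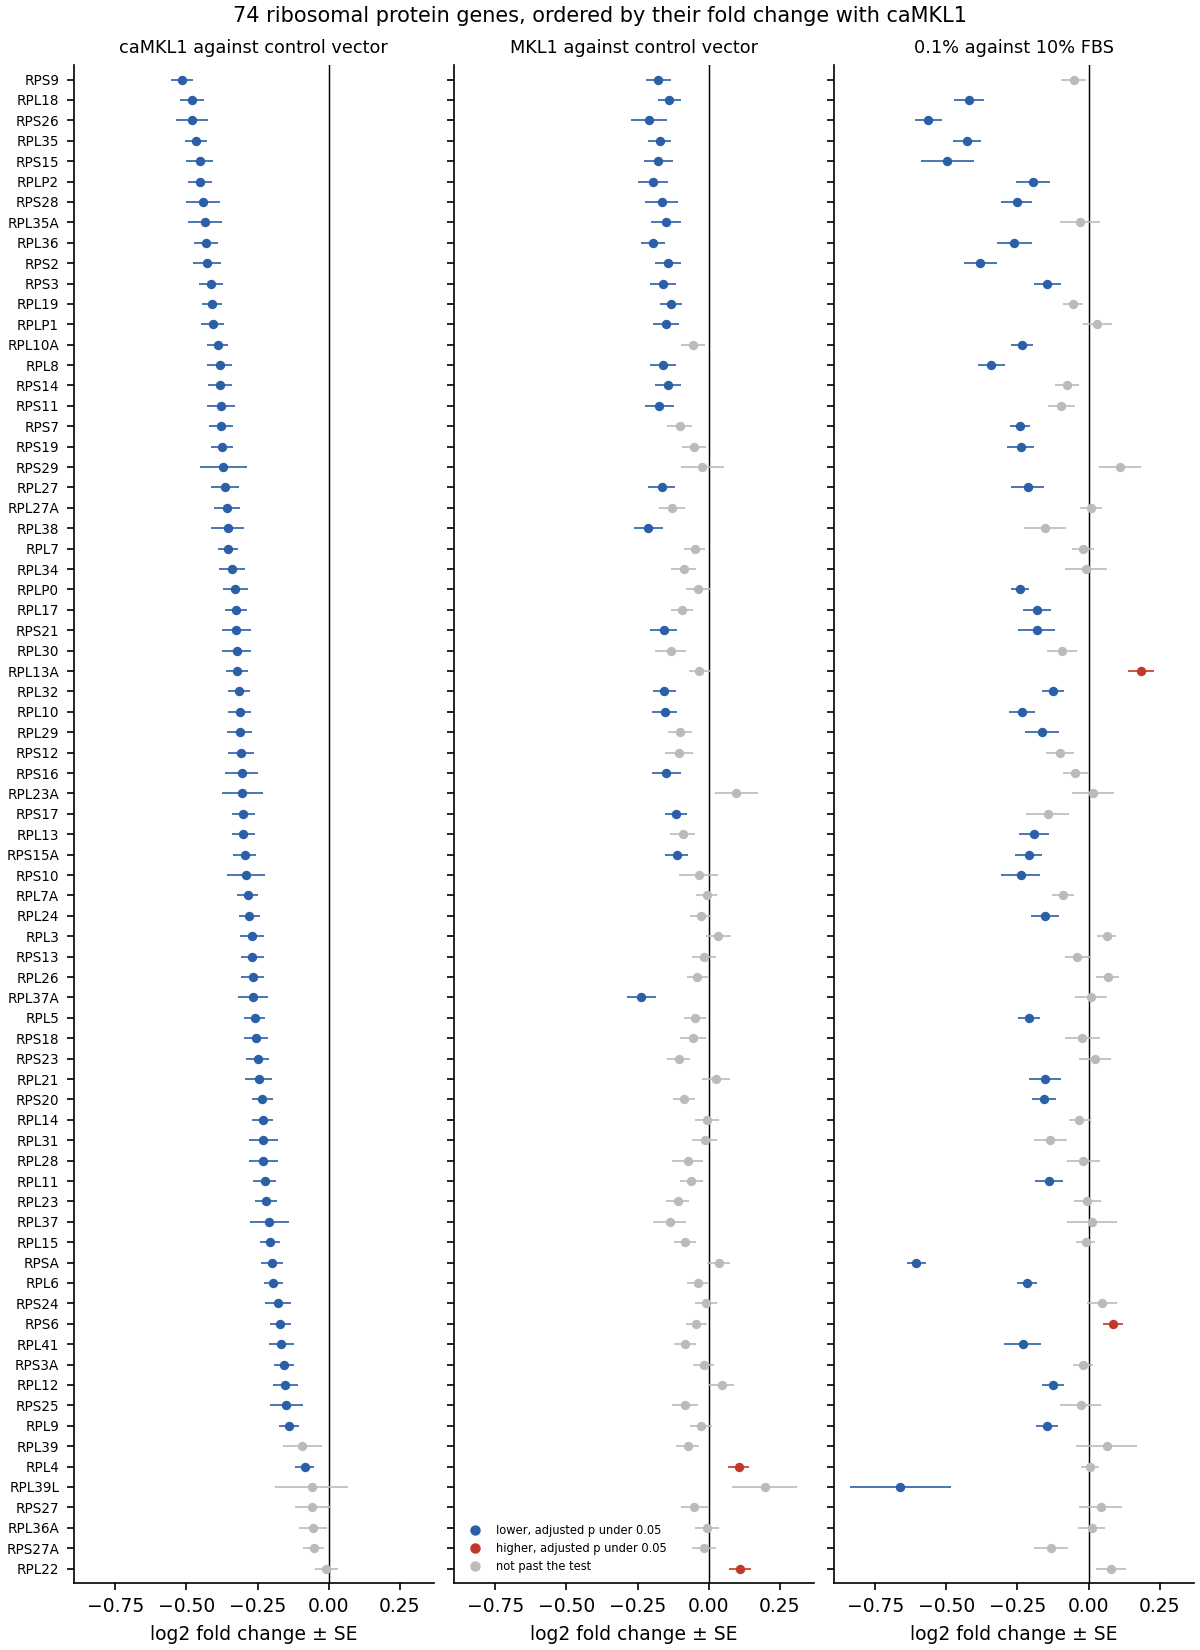
Log2 fold change with SE of 74 of the 77 members tested, one row per gene, ordered by the caMKL1 comparison; the 3 panels share one axis, blue marks a fall and red a rise past an adjusted p of 0.05. In the left panel all 74 points lie left of 0, from RPS9 at -0.51 to RPL22 at -0.01, while the starvation panel spreads from RPL39L at -0.66 to RPL13A at 0.18.

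With MKL1 itself fewer members passed, and the count moved with 1 library and with the scaling. Against control vector 28 of 77 members fell and 2 rose (edgeR, 13409 genes), where 31.2% of all genes passed, 15.4% lower and 15.8% higher. This comparison uses the same control vector libraries as that of caMKL1. The median log2 fold change was -0.09, or -5.93%, against 0.01 over all genes, and 69 of 77 values lay below 0. Without MKL1 replicate 3, only 4 members passed as lower. With library totals in place of TMM 18 did, and with limma on log2(FPKM + 0.1) 9 did, with a median of -0.055. More than 28 passed as lower with DESeq2, which gave 35, and with the caMKL1 libraries added to the edgeR fit, which gave 38. With edgeR the median was between -0.11 and -0.07 whichever library was left out. The MKL1 libraries lay wholly below control vector for 44 members, against 22.7% of all genes, and wholly above for 3, against 23.7%. By role, 5 of the 7 proteins of the decoding site and channel fell, and 2 of the 4 of the stalk. Of the 8 of the exit tunnel 2 fell and 1 rose, and 5 fell of the 16 listed for Diamond-Blackfan anemia. Of all members, 36.4% fell. Other genes of at least 100 CPM had a median of -0.04, and the 88 short ones among them -0.08.

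The largest falls with MKL1 were those of RPL37A and RPL38, small proteins of the large subunit. RPL37A, which carries a zinc finger, had 246, 238 and 233 CPM with MKL1, against 305, 271 and 270.4 CPM with control vector. Control replicate 1 was high, and no MKL1 library reached the controls (-0.24 ± 0.05, edgeR adjusted p = 0.0038). RPL38, known in mouse for the translation of Hox messages, had 178, 171 and 173 CPM with MKL1, against 217, 190.2 and 198 CPM with control vector (-0.21 ± 0.05, edgeR adjusted p = 0.0066). RPL36 fell by 0.20 ± 0.04 on the log2 scale, RPS26 by 0.21 ± 0.06 and RPLP2 by 0.20 ± 0.05. RPS26 lost its call without MKL1 replicate 1 (adjusted p = 0.087) or 3 (0.076) and RPLP2 without replicate 3 (0.077). RPL10 fell by 0.16 ± 0.04 and lost its call without MKL1 replicate 3 (adjusted p = 0.081). RPLP1 fell by 0.15 ± 0.05 and lost its call without MKL1 replicate 2 (0.089) or 3 (0.13) or control vector replicate 3 (0.050).

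The 2 members that rose with MKL1 did so at the edge of the threshold. RPL22 had 273, 281 and 273.5 CPM with MKL1, against 257, 250 and 259 CPM with control vector (0.11 ± 0.04, edgeR adjusted p = 0.0499). RPL4, which reaches into the exit tunnel, had 1372, 1396 and 1341 CPM, against 1269, 1290.0 and 1260.3 CPM (0.11 ± 0.04, edgeR adjusted p = 0.043). Neither gene's libraries overlapped, but RPL22 lost its call whenever a library other than control vector replicate 1 was left out, with adjusted p of 0.11 to 0.27, and RPL4 likewise, with 0.078 to 0.20. RPLP0 (-0.04), RPL12 (0.05), RPSA (0.04), RPL5 (-0.05), RPL11 (-0.06), RPS6 (-0.04), RPS27A (-0.02), RPL3 (0.03), RPL39 (-0.07) and RPL39L (0.20) did not pass the test with MKL1 (edgeR adjusted p from 0.19 to 0.80).

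Set directly against MKL1, in a fit of all 9 overexpression libraries, 66 of 77 members were lower with caMKL1 and 0 higher (edgeR, 13720 genes), where 52.2% of all genes passed, 27% lower and 25.2% higher. The count of higher members is also 0 at an unadjusted p under 0.05 and with DESeq2 and limma on FPKM. The median log2 fold change was -0.20, or -12.9%, against -0.02 over all genes. The caMKL1 libraries lay wholly below those of MKL1 for 67 members, against 32% of all genes, and wholly above for 0, against 29.4%. The 2 forms were not at an equal message level in these libraries (MRTFA log2 fold change -0.65 ± 0.04, edgeR adjusted p = 1.9e-10).

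RPL23A fell most against MKL1, at 20.8, 19.5 and 18.8 CPM with caMKL1, against 26.6, 23.1 and 27.3 CPM with MKL1 (-0.38 ± 0.08, edgeR adjusted p = 4.1e-04). The libraries did not overlap. RPS29, a zinc-binding protein of the small subunit head, fell by 0.33 ± 0.08, RPL18 by 0.32 ± 0.04, RPS9 by 0.32 ± 0.04, RPL10A by 0.32 ± 0.04 and RPS19 by 0.31 ± 0.04 on the log2 scale. RPS19, the gene most often mutated in Diamond-Blackfan anemia, had 355, 335 and 347 CPM with caMKL1, against 436, 435 and 410.3 CPM with MKL1, again without overlap. All 7 proteins of the decoding site and channel and all 4 of the stalk fell, where 85.7% of all members fell. The stalk fell by 0.18 for RPL12 to 0.27 for RPLP0. Lower as well were RPL5 (-0.20), RPL11 (-0.15), RPSA (-0.22), RPL3 (-0.29) and RPL10 (-0.14). RPS6 (-0.11, edgeR adjusted p = 0.017) and RPL22 (-0.10, 0.034) fell too, but RPS6 lost its call without caMKL1 replicate 1 (0.13) or MKL1 replicate 1 (0.072), RPL11 without caMKL1 replicate 1 (0.055), and RPL22 without any of the 6 libraries compared (0.052 to 0.22). The 11 members that did not pass were RPL23, RPL36A, RPL37, RPL37A, RPL38, RPL39, RPL39L, RPL41, RPS25, RPS27 and RPS27A. RPL39 stood at 188, 238 and 235 CPM with caMKL1, against 225, 219 and 218 CPM with MKL1, and without caMKL1 replicate 1 its log2 fold change turned to 0.11 (edgeR adjusted p = 0.036).

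**Figure D4:**
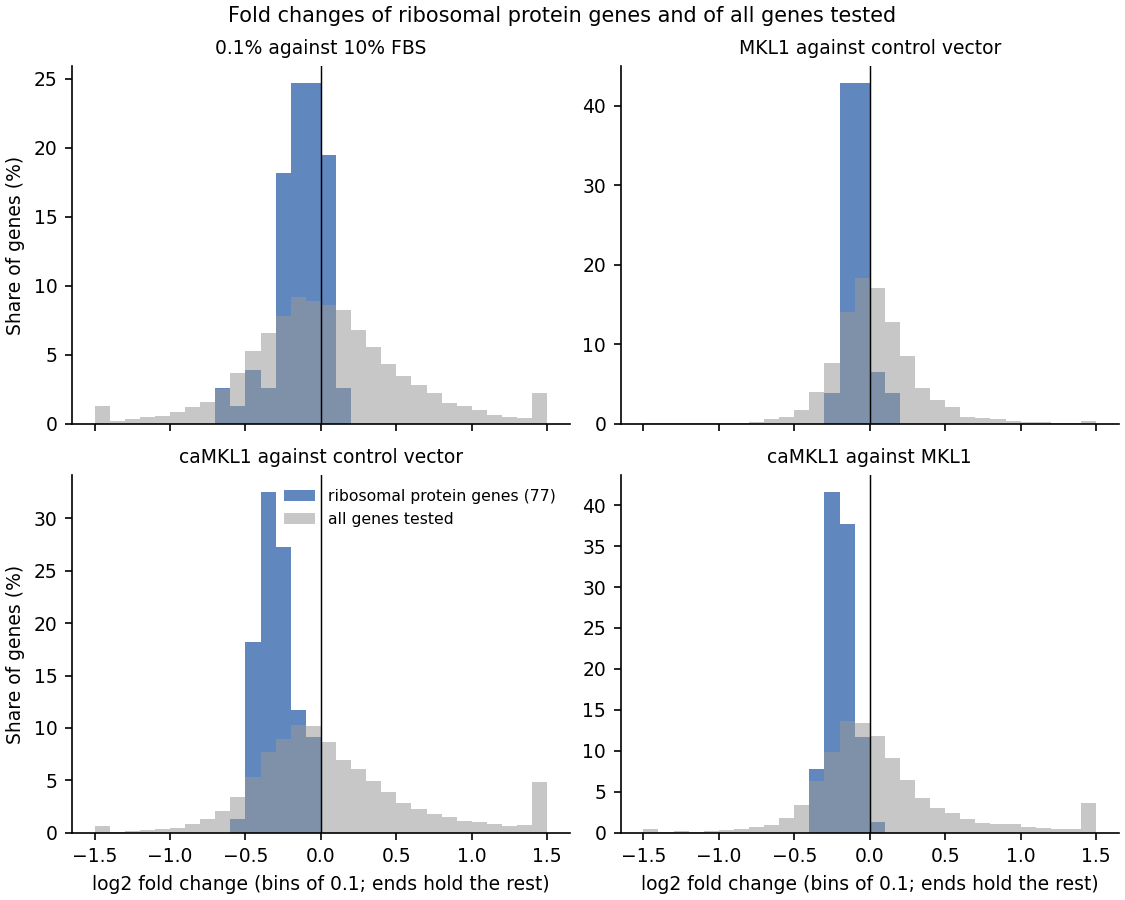
Share of genes, in percent, by log2 fold change in bins of 0.1, for the 77 members (blue) and all genes tested (grey) in the 4 comparisons; the end bins hold all values beyond. The members form a narrow peak left of 0, furthest left with caMKL1, where the median is -0.30 and the SD 0.12.

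Serum starvation moved the family less uniformly. In 0.1% against 10% FBS, 35 of 77 members fell and 2 rose (edgeR, 13307 genes), where 62.6% of all genes passed, 31.4% lower and 31.2% higher. The median log2 fold change of the members was -0.12, and 60 values lay below 0. The 0.1% FBS libraries lay wholly below those of 10% FBS for 30 members, against 33.4% of all genes, and wholly above for 2, against 33.7%. Other short genes had lower values than the members: the median was -0.29 over 792 other genes with an implied length under 1000 bases and -0.26 over the 93 of these of at least 100 CPM, and the part of length in the result was not tested. The SD over members was 0.16, against 0.12 with caMKL1, so single members stood further apart.

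RPSA, the ribosomal protein that also serves as a laminin receptor, fell most clearly. It had 1126, 1100 and 1136 CPM in 0.1% FBS, against 1702, 1733 and 1683 CPM in 10% FBS. The groups were far apart with little spread in either (-0.61 ± 0.03, edgeR adjusted p = 1.5e-09). RPL39L had a fall of similar size at a low level, with 2.91, 3.11 and 2.92 CPM in 0.1% FBS, against 4.35, 5.71 and 4.10 CPM in 10% FBS (-0.66 ± 0.18, edgeR adjusted p = 0.0047). RPS26 had 305, 299.5 and 298 CPM in 0.1% FBS, against 432.5, 477 and 425 CPM in 10% FBS (-0.56 ± 0.05, edgeR adjusted p = 1.1e-07), and the starved libraries were again the tighter group. RPS15 (-0.50 ± 0.09), RPL35 (-0.43 ± 0.05) and RPL18 (-0.42 ± 0.05) followed, all with edgeR adjusted p of at most 3.2e-04 and no overlap.

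Under starvation the calls within the stalk, the exit tunnel and the decoding site were mixed. In the stalk, RPLP0 (-0.24 ± 0.03), RPLP2 (-0.19 ± 0.06) and RPL12 (-0.12 ± 0.04) fell, while RPLP1 had 462, 481 and 520 CPM in 0.1% FBS, against 454, 470.0 and 508 CPM in 10% FBS (0.03 ± 0.05, edgeR adjusted p = 0.62). Of the 8 proteins of the exit tunnel only RPL35 and RPL17 fell, and of the 7 of the decoding site and channel only RPS15, RPS2 and RPS3. Of the 16 members listed for Diamond-Blackfan anemia, 8 fell, where 45.5% of all members fell. Both members that bind the 5S rRNA fell, RPL5 by 0.21 ± 0.04 and RPL11 by 0.14 ± 0.05, and RPL10 fell by 0.23 ± 0.05. The calls of RPL11, RPL12 and RPLP2 were lost without 1 library: RPL11 without 10% FBS replicate 3 (edgeR adjusted p = 0.071) or 0.1% FBS replicate 1 (0.13) or 2 (0.095), RPL12 without 0.1% FBS replicate 3 (0.056) and RPLP2 without 0.1% FBS replicate 1 (0.072). RPS27A (-0.13), RPL22 (0.08), RPL3 (0.06) and RPL39 (0.06) did not pass the test (edgeR adjusted p = 0.065, 0.20, 0.12 and 0.63). Each passed without 1 library or more: RPS27A as lower without 10% FBS replicate 1 or 2 or 0.1% FBS replicate 3, RPL22 and RPL39 as higher without 10% FBS replicate 3, and RPL3 as higher without 10% FBS replicate 2.

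The 2 members that rose in 0.1% FBS were RPL13A and RPS6. RPL13A, which also acts outside the ribosome to silence inflammatory messages, had 1900.2, 1825 and 1780.1 CPM in 0.1% FBS, against 1606, 1738 and 1501 CPM in 10% FBS. The starved libraries were all above the fed ones (0.18 ± 0.05, edgeR adjusted p = 0.0033). RPS6 had 2126, 2173 and 2262 CPM in 0.1% FBS, against 1991, 2120.5 and 2068 CPM in 10% FBS, with a narrow gap (0.09 ± 0.04, edgeR adjusted p = 0.048). Without 1 library, 1 to 4 members were higher. RPS6 lost its call without 10% FBS replicate 1 (0.22) or 3 (0.057) or without 0.1% FBS replicate 2 (0.096) or 3 (0.21).

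Starvation and caMKL1 share no library, so their fold changes can be set side by side. Of the 71 members that fell with caMKL1, 34 (47.9%) also fell under starvation, and of the 35 that fell under starvation these are 97.1%, the other being RPL39L. Of all 77 members, 45.5% fell under starvation and 92.2% with caMKL1, so both shares lie near those of the whole family. Across the 77 members the 2 log2 fold changes had a Pearson correlation of 0.30 and a Spearman correlation of 0.40, and without RPL39L 0.43 and 0.45. Over all 13014 genes tested in both, they were 0.15 and 0.23. RPS26, RPS15, RPL35, RPL18 and RPS2 were low in both. RPSA stood at -0.61 under starvation and -0.20 with caMKL1, RPS9 at -0.05 under starvation, where it did not pass the test, and -0.51 with caMKL1, and RPL13A at 0.18 under starvation and -0.32 with caMKL1. Members are not replicates of a condition, and these correlations describe the pattern only.

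**Figure D5:**
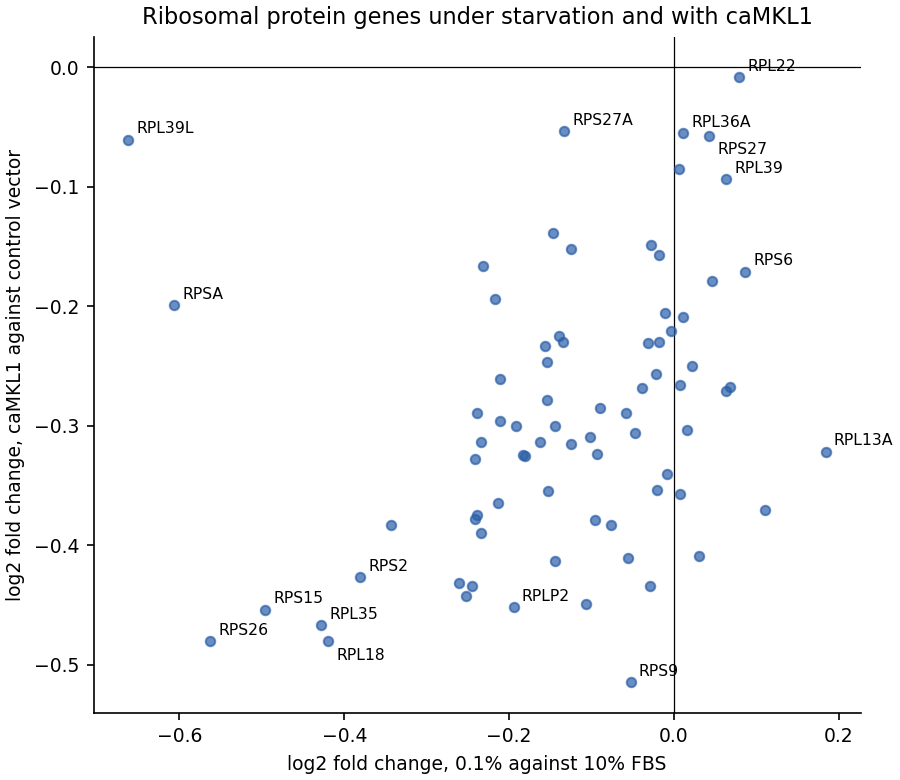
Log2 fold change of each of the 77 members in 0.1% against 10% FBS (horizontal) and with caMKL1 against control vector (vertical). RPS26, RPS15, RPL35 and RPL18 lie low on both axes, RPSA and RPL39L are low mainly under starvation, and RPL13A and RPS9 mainly low with caMKL1.

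Members with the run of pyrimidines at the start had a median nearer 0 than those with a shorter run or none with caMKL1 and under starvation, and one further below 0 with caMKL1 against MKL1. With caMKL1 the 52 tested members with a run of at least 5 bases had a median log2 fold change of -0.29, with 47 lower, the 9 with a shorter run or none -0.33, with 9 lower, and the 16 without a start window -0.30, with 15 lower. The medians in the same order were -0.10, -0.18 and -0.13 under starvation, -0.08, -0.08 and -0.12 with MKL1, and -0.21, -0.18 and -0.19 with caMKL1 against MKL1, where the members with a run had the lowest. With caMKL1 92.2% of all members and 33.1% of all genes fell, so the counts by class lie near the share of the family. No difference between these classes was tested. RPS26 and RPS15, with no such run within 4 bases of the annotated start, were among the largest falls with caMKL1 and under starvation. Their stretches above do hold a run that begins with C further from that start. RPL22, RPS27A, RPL36A and RPS27, which hold a run within 4 bases of a start, did not pass the test in either comparison. These members were chosen by their fold changes or calls.

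Of 9 ribosomal genes that the symbol rule leaves out, 6 fell and 1 rose with caMKL1, where 92.2% of the members and 33.1% of all genes fell. Their median log2 fold change was -0.30, as was that of the members, with an SD of 0.27, against 0.12 for the members. FAU, which encodes RPS30 (-0.50), RACK1, a scaffold on the small subunit (-0.32), RPS4X (-0.25), RPL7L1 (-0.35) and the RPL22 paralog RPL22L1 (-0.37) were among those that fell, and RPS27L, a p53 target, rose by 0.40 ± 0.06 (edgeR adjusted p = 2.2e-05). RPS27L rose with MKL1 (0.51 ± 0.05) and in 0.1% FBS (0.44 ± 0.07) as well. In 0.1% FBS 5 of the 9 fell, FAU by 0.35 ± 0.05, and 2 rose, RPS4X by 0.14 being the other. Of all genes, 31.4% fell and 31.2% rose there. With MKL1 FAU and RACK1 fell by 0.15 and 0.14, where 15.4% of all genes fell. With caMKL1 against MKL1 6 fell and 0 rose, where 27% of all genes fell and 25.2% rose.

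Of 18 other messages of the 5′ TOP class, 12 fell and 0 rose with caMKL1, where 33.1% of all genes fell and 30.5% rose, with HNRNPA1 at -0.45, EEF1D, a subunit of elongation factor 1, at -0.33, NACA at -0.28 and EEF2, the translocation factor, at -0.28. EEF1A1, which brings aminoacyl-tRNA to the ribosome, had 7115 CPM on average with caMKL1 and 7268 CPM with control vector, and did not pass the test (-0.03, edgeR adjusted p = 0.47). In 0.1% FBS 5 rose and 6 fell, near the shares over all genes of 31.2% and 31.4%: TPT1 rose by 0.48 ± 0.04, EIF4B by 0.36 ± 0.04, EEF1A1 by 0.29 ± 0.03 and EEF2 by 0.18 (edgeR adjusted p at most 0.0029), while EEF1D fell by 0.49 ± 0.05. With MKL1 3 rose and 2 fell, where 15.8% of all genes rose and 15.4% fell. With caMKL1 against MKL1 15 fell and 0 rose, where 27% of all genes fell and 25.2% rose.

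Of 20 initiation factors, 14 fell and 0 rose with caMKL1, where 33.1% of all genes fell, and 6 fell and 1 rose with MKL1, where 15.4% fell and 13 of the 20 did not pass. With caMKL1 against MKL1 13 fell and 1 rose, where 27% of all genes fell, and in 0.1% FBS 12 fell and 2 rose, where 31.4% fell. With caMKL1 EIF2B5, EIF3C, EIF4A1 and EIF4G1 fell by 0.53, 0.45, 0.44 and 0.43, and in 0.1% FBS EIF2S2, a subunit of the factor that carries the initiator tRNA, fell by 0.61 ± 0.04 and EIF6, which keeps the subunits apart, by 0.50 ± 0.05. Of 11 chaperones and importers of new ribosomal proteins, 9 fell and 0 rose with caMKL1, with GRWD1, the chaperone of RPL3, at -0.62 ± 0.05 and the importin IPO5 at -0.47 ± 0.04. In 0.1% FBS 8 of them fell, BCCIP, which escorts RPL23, by 0.72 ± 0.04, and the importin IPO7, named after its value was seen, rose by 0.25. With MKL1 2 fell, GRWD1 at -0.29 and AAMP at -0.25, and with caMKL1 against MKL1 9 fell and 0 rose.

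Of 19 regulators tested, 9 fell and 1 rose with caMKL1, where 33.1% of all genes fell and 30.5% rose. MYC averaged 14.3 CPM with caMKL1 and 24.3 CPM with control vector (-0.76 ± 0.08, edgeR adjusted p = 9.7e-07), and LARP1, which binds the TOP element, 429 CPM with caMKL1 and 579 CPM with control vector (-0.43 ± 0.04, 1.2e-07). The 1 that rose, named after its value was seen, was TSC1 (0.25). With caMKL1 against MKL1, MYC (-0.61) and LARP1 (-0.30) were among 6 that fell, and 3 rose. Over all genes, 27% fell and 25.2% rose in that comparison. In 0.1% FBS 8 were higher and 5 lower, where 31.2% of all genes were higher and 31.4% lower: EIF4EBP1, the translation repressor that mTOR switches off, fell by 0.96 ± 0.07, the MYC antagonist MXI1 rose by 0.83 ± 0.07 and TSC1, an inhibitor of mTOR signalling, by 0.54 ± 0.05, and MYC averaged 45.9 CPM in 0.1% FBS and 51.4 CPM in 10% FBS (-0.16, edgeR adjusted p = 0.0499). With MKL1, 3 regulators fell, RPTOR, LARP1 and TSC2, and MXI1 rose, where 15.4% of all genes fell and 15.8% rose. MXI1 fell with caMKL1 (-0.46).

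The ribosomal proteins of mitochondria, encoded by other nuclear genes, had their lowest median under starvation. In 0.1% FBS 59 of 78 fell and 4 rose, where 31.4% of all genes fell and 31.2% rose. Their median log2 fold change was -0.37, with MRPL12 at -0.85 ± 0.06, while the cytosolic members had a median of -0.12. With caMKL1 49 of 79 fell and 5 rose, where 33.1% of all genes fell and 30.5% rose. The median was -0.20, against -0.30 for the cytosolic members, and MRPS6 rose by 1.05 ± 0.05. With MKL1 10 of 79 fell and 7 rose, where 15.4% of all genes fell and 15.8% rose. With caMKL1 against MKL1 41 of 79 fell and 4 rose, where 27% of all genes fell and 25.2% rose. The difference between the 2 families was not tested.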

How the data were processed

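Human A375 cells were profiled by RNA-seq in 15 libraries, 5 groups of 3. The authors deposited counts per gene and library, per the file headers. They are whole numbers, but the submitters' processing notes name RSEM beside Bowtie2 2.2.8, HISAT2 2.2.4, StringTie 1.3.1 and DESeq2, so they may be rounded estimates. Per the file headers the authors also deposited FPKM values, log2 fold changes and p-values. The build is GRCh38 per those notes. Strand use in counting is not given in the sources used here.

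Members and gene lists were chosen with earlier results of these data known. The main test was that of edgeR 4.0.16 under R 4.3.3 (TMM, filterByExpr, quasi-likelihood test, two-sided, Benjamini-Hochberg over all genes, threshold 0.05). Starvation, MKL1 and caMKL1 were fitted on 6 libraries each, and caMKL1 against MKL1 on 9. The fit was run on simulated counts with known changes, but recovery was required only for changes larger than that of any member. Precision is limited by 3 libraries a group and by 13937251 to 23957043 counts a library. Full statistics are given for the 6 largest rises and falls past the test and for 16 fixed members; values of a few genes are not reported here. DESeq2 1.42.0, limma 3.58.1 on log2(FPKM + 0.1) for genes of at least 1 FPKM, other scalings, filters and left-out libraries were alternatives. Gene positions and copies came from GENCODE v29 and start windows from RefSeq.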

Additional observations from a re-analysis of the deposited data

How the results depend on the processing

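All member medians kept their sign under every alternative run, and 0 members rose with caMKL1 in any. With library totals in place of TMM, the counts were 4 higher and 28 lower for starvation, 18 lower for MKL1 and 71 lower for caMKL1 against MKL1. The medians were then -0.060 (MKL1), -0.33 (caMKL1) and -0.27 (caMKL1 against MKL1). With limma on log2(FPKM + 0.1) starvation had 26 lower, MKL1 9 lower and 0 higher, and caMKL1 against MKL1 70 lower. The limma medians were -0.055, -0.33 and -0.27 in the same order, and -0.085 for starvation. Starvation had 1 member higher with TMM factors computed without the members, with DESeq2 and with no filter on low counts. MKL1 had 1 higher with TMM without the members, with DESeq2 and with the replicate block, and 0 with no filter and in the fit of 9 libraries. The share of counts changed by -1.03% for starvation as a share of summed FPKM, by -17.6% (caMKL1) and -14.8% (caMKL1 against MKL1) without the 100 largest other genes, and by -16.7% and -14.5% as a share of FPKM. The cause was not tested. In caMKL1 against MKL1, limma moved the median of all genes to -0.11.

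Leaving out 1 library at a time, the counts for starvation were 1 to 4 higher and 27 to 41 lower, for MKL1 0 to 2 and 4 to 28, for caMKL1 0 and 68 to 70, and for caMKL1 against MKL1 0 to 1 and 57 to 68. The medians ranged from -0.15 to -0.09, -0.11 to -0.07, -0.31 to -0.25 and -0.22 to -0.18, and the changes in share from -6.73% to -4.34%, -4.32% to -1.95%, -20.3% to -18.6% and -17.8% to -16.0%. In caMKL1 against MKL1 RPL39 ranged from -0.062 to 0.11, the highest without caMKL1 replicate 1. Over all genes tested, same-numbered libraries shared little deviation (correlations -0.04 to 0.12). Such correlations include many genes with low counts, so they cannot decide if the numbers pair the samples. With the replicate block 44 members were lower under starvation, 33 with MKL1, 71 with caMKL1 and 67 against MKL1. Of single-member results under the alternatives, 1063 kept their side of the threshold, 56 lost and 13 gained a call. In 1, that of RPL39 above, the value passed the test with the opposite sign. Some values near 0 also changed sign when 1 library was left out, as RPLP0 with MKL1, which ranged from -0.077 to 0.0097. Of the values over the whole family, 41 moved and 169 did not. The authors' deposited table gave 29 members lower and 0 higher for starvation, 31 and 1 for MKL1, and 68 and 0 for caMKL1. Counts were low for RPL39L, and under the filter for RPL10L, RPL3L and the second IDs of RPL22 and RPL26.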
